A study of Mus musculus with 3 samples.

Results

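Replication-dependent histone genes encode the linker histone H1 and the core histones H2A, H2B, H3 and H4 that package newly copied DNA. CTCF occupancy around them was examined in LSK cells. The members were the protein-coding genes of the GENCODE M21 annotation whose symbols begin with Hist1h, Hist2h, Hist3h or Hist4h. They numbered 67 of the 21755 protein-coding genes on Chromosomes 1 to 19 and X. Another 3 genes with such symbols are not protein-coding in the annotation and were left out. The LSK CTCF library came from adult male C57BL6 mice, from bone marrow cells sorted as Lin-, Sca1+, cKit+, a population that includes hematopoietic stem cells and multipotent progenitors. The sort also removed cells with CD4, CD8, CD11b, CD45R, IL7Ra, Ly6g or Ter119. The series holds 2 further samples, an input of LSK cells and an input of MEP cells, which were not analyzed here. The authors' list held 18945 peaks whose medians were 10.12 for fold enrichment and 12.617 for the −log10 p-value. There was 1 CTCF library and so no replicate, and each value below stands without a replicate error. Peaks do not measure RNA, so the LSK label was not checked against the markers Kit and Ly6a.

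Cells make these histones in bulk during S phase, when new nucleosomes are assembled behind the replication fork. Their short genes typically lack introns, and their mRNAs end in a stem-loop in place of a poly(A) tail. Many lie in clusters, often as H2A and H2B genes that face away from a shared promoter region, and cells gather the largest clusters in nuclear bodies that hold the processing factors. CTCF is a zinc finger protein that binds a long DNA motif, marks many boundaries of chromosome loops, and blocks cohesin best when the motif points into the loop.

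The histone symbols fell into 6 H1, 18 H2A, 18 H2B, 12 H3 and 13 H4 genes, and 37 were on the plus and 30 on the minus strand. With the shortest annotated coding sequence of each gene translated from the reference genome (GRCm38.p6, the coordinates of mm10), they encoded 29 distinct proteins. All 13 H4 genes encoded the same protein of 103 residues, and the 12 H3 genes encoded 2 proteins of 136 residues. The 18 H2A genes gave 9 proteins, the 18 H2B genes gave 11, and each of the 6 H1 genes gave its own. Members whose gene bodies were up to 200 kb apart were joined into 5 blocks. The first block on Chromosome 13 ran from Hist1h2bl to Hist1h2bj (chr13:21715763-22043676, 23 members) and the second from Hist1h4h to Hist1h2aa (chr13:23531050-23934851, 31 members). The Hist2 block lay at chr3:96219865-96270132 with 10 members, the Hist3 block at chr11:58948920-58956830 with 2 members, and Hist4h4 stood alone at chr6:136801553-136804415.

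The sequences under several of the peaks are shown first, because they separate peaks that carry the 12-base CTCF core motif without a mismatch from those that carry it with 1 mismatch. Each is printed 5′ to 3′ on the strand of the motif, in GRCm38.p6, with the core in capitals and 19 bases on either side. The first 4 have no mismatch, and the last 3 have 1. The site of the Hist2h2bb peak lies 236 bp from the middle of a peak 1113 bp wide, and the others lie within 44 bp of the middle.
Hist1h4j peak, chr13:21734262-21734311, minus strand: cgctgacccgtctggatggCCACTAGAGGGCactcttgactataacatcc
Hist1h2ah peak, chr13:22030613-22030662, minus strand: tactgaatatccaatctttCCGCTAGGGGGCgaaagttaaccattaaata
Hist1h2be intron peak, chr13:23598156-23598205, minus strand: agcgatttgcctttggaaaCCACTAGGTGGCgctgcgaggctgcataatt
Peak beyond Hist1h1a, chr13:23792657-23792706, plus strand: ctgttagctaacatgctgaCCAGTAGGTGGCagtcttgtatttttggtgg
Hist1h2bl peak, chr13:21714893-21714942, plus strand: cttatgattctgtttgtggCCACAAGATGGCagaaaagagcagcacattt
Hist1h4c peak, chr13:23697544-23697593, minus strand: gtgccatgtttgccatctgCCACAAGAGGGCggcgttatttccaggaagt
Hist2h2bb peak, chr3:96278501-96278550, plus strand: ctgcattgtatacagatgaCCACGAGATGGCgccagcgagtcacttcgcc

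No CTCF peak overlapped the transcription start site (TSS) of any of the 67 members, where 4.26% of all protein-coding genes had a peak over the TSS, so that few would be met among 67 genes. A peak lay within 1 kb of the TSS of 6 members (8.96%), where the share over all protein-coding genes was 8.59%. Of the 6, Hist1h2ak and Hist1h2bn rested only on a peak of repeated sequence described below, so the count would be lower without it. Within 10 kb there was a peak for 26 members (38.8%), against 29.3% of all protein-coding genes, and within 50 kb for 62 members (92.5%), against 67.7%. In bands, 6 members had their nearest peak up to 1 kb away, 20 at 1 to 10 kb, 36 at 10 to 50 kb and 5 beyond 50 kb. The median distance was 15431 bp for the members and 24222 bp for all protein-coding genes. Neighboring members shared peaks, and the 26 members were served by 15 distinct peaks. The members just inside 10 kb were Hist2h3b at 9079 bp and Hist1h2af at 8666 bp, and those just outside were Hist1h3g at 10182 bp and Hist3h2a at 12543 bp. With only the peaks at or above the median −log10 p-value, the 26 members became 10, and with the peaks at or above the median fold enrichment they became 14. Without 3 peaks of repeated sequence described below, they became 17 (25.4%), under the share of all genes, which was taken with all peaks.

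Histone genes stand close together, so the share was also taken over the 334 protein-coding genes with at least 10 other protein-coding TSSs within 50 kb. Of these, with the members among them, 42.5% had a peak within 10 kb. Without the members the share was 45.4% of 293 genes, which included no olfactory or vomeronasal receptor gene. The 41 members at that density had a peak within 10 kb in 9 cases (22.0%), below both shares. They are neighbors, with 8 in the first block of Chromosome 13, 23 in the second and 10 in Hist2. Their 9 cases came from 5 distinct peaks, so they do not count as 41 separate places. Without the peaks of repeated sequence described below, the cases numbered 6 (14.6%), while the shares over other genes were taken with all peaks. These 41 were also below the 29.3% of all genes, and with 1 library none of these differences could be set against a replicate error.

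**Figure D1:**
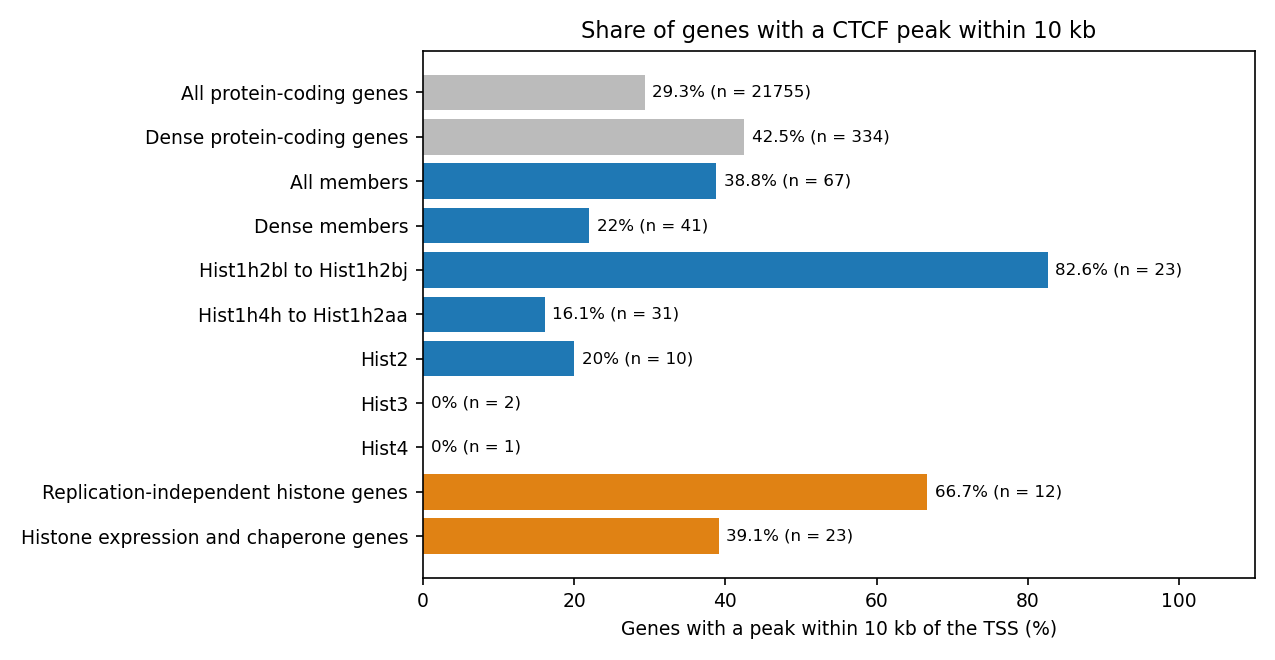
Share of genes with a CTCF peak within 10 kb of the TSS (x axis, percent), for all protein-coding genes and those with 10 or more other protein-coding TSSs within 50 kb (dense, gray), for the members and their groups (blue), and for both lists of related genes (orange). The first block of Chromosome 13 stands at 82.6% and the second at 16.1%.

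The shares differed between the blocks. In the first block of Chromosome 13, 19 of 23 members (82.6%) had a peak within 10 kb, 5 of them within 1 kb, and the median distance was 4948 bp. In the second block 5 of 31 members (16.1%) had one, 1 of them within 1 kb, and the median distance was 22097 bp. In the first block 9 of the 19 members rested on the 3 peaks of repeated sequence alone, and without those peaks 10 of 23 (43.5%) were within 10 kb, while the second block stayed at 5 of 31. The first block, with 5 kb on either side, held 10 peaks (exact Poisson 95% interval 4.8 to 18.4, for counting error only), or 29.6 per Mb (14.2 to 54.4). The second block held 6 peaks (2.2 to 13.1), or 14.5 per Mb (5.32 to 31.6). The genome as a whole held 7.19 peaks per Mb. All 5 blocks together held 16 peaks in 843 kb (9.15 to 26.0), where the density of the genome would give 6.06. Without the 3 peaks of repeated sequence they held 13, with the density of the genome still taken over all peaks. No density was taken over other gene-dense regions. The Hist2, Hist3 and Hist4h4 blocks held 0 peaks each, which allows up to 3.69 in a block. At the density of the genome they would have held 0.434, 0.129 and 0.0925 peaks, so that a deficit was not detectable at their size.

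By histone type, H4 genes lay nearest to a peak and H1 genes farthest in the median, although the ranges overlapped. The H4 genes, whose product forms a tetramer with H3, had a median distance of 8046 bp (416 to 43222 bp), and 7 of 13 were within 10 kb. H2B genes had 13371.5 bp (369 to 141085 bp) with 8 of 18 within 10 kb. H2A genes had 14456 bp (73 to 141391 bp) with 7 of 18. H3 genes had 19405.5 bp (2327 to 38606 bp) with 2 of 12, and the H1 genes, which bind the linker DNA outside the core particle, had 23138.5 bp (1372 to 28655 bp) with 2 of 6. The order of the types was bound up with the blocks. All 5 H4 genes of the first block were within 10 kb, but 2 of 6 in the second, and for H2B genes the counts were 7 of 8 and 0 of 7. Without the 3 peaks of repeated sequence, the first block had 2 of 5 H4 genes and 4 of 8 H2B genes within 10 kb. The medians over all blocks were then 16262 bp for H4 and 26016 bp for H1 genes, still the lowest and the highest, and H2A genes moved from 14456 to 25059.5 bp.

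**Figure D2:**
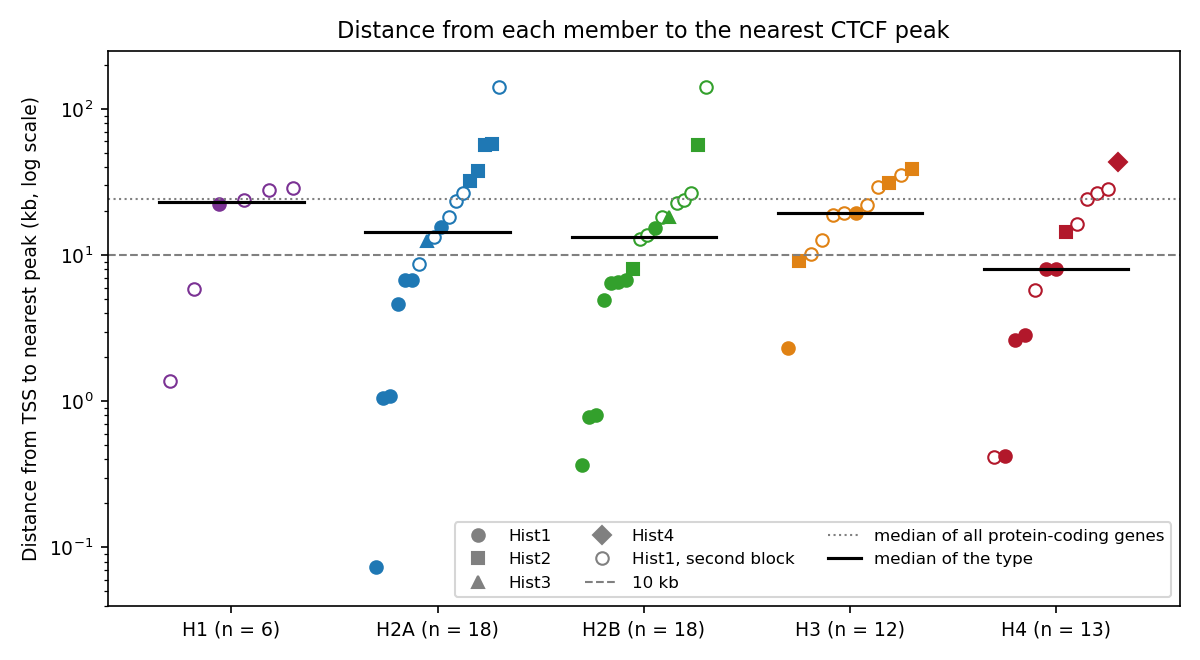
Distance from the TSS of each of the 67 members to the nearest CTCF peak (y axis, kb, log scale), by histone type. Marker shapes give the cluster, open circles are the second block of Chromosome 13, and black bars are medians. The filled circles of the first block crowd below 10 kb, and the open circles mostly lie above it.

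Of the 15 distinct peaks within 10 kb of a member, 5 lay upstream of their nearest member, 8 downstream and 2 over its gene. Their fold enrichments ran from 4.24 to 12.4 with a median of 9.46, and their −log10 p-values from 5.069 to 30.75 with a median of 10.345. Both medians were below those of all peaks. By fold enrichment 6 of the 15 reached the median of all peaks, by −log10 p-value 4 did, and 0 were at or above the 90th percentile by fold enrichment. By −log10 p-value the peak at chr3:96277733-96278845 stood at the 91.0th percentile. Few of 15 peaks would be met above the 90th percentile. The core motif without a mismatch was found in 2 of the 15, where 35.6% of all peaks held it. With up to 1 mismatch it was found in 10 of the 15, where 83.6% of all peaks held it. Of the other 5 peaks, 2 have the same sequence, as described next.

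The authors kept reads that map to several places, and histone genes are near copies of one another, so the sequence was examined for repeats. Of the 36-base words of a member gene, a median of 53.4% occurred again in the reference genome, and a median of 53.1% in another member. H2A genes had the most, with a median of 73.9%, followed by H3 genes with 59.8%, H2B genes with 51.1% and H4 genes with 44.8%, and H1 genes had 2.83%. The 300 bases around a TSS were less repeated, with a median of 20.8% over all members. Over 90% of the words were repeated in 2 of the 15 peaks, where 1.36% of all peaks passed that limit, and over 40% in 3 of the 15, where 3.18% of all peaks did.

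Those 2 peaks were mirror images. One, chr13:21802892-21803701, was enriched 8.81-fold with a −log10 p-value of 10.345, and the other, chr13:21840242-21840940, had 10.44 and 11.454. Aligned on opposite strands, they were identical over all 699 bases of the shorter one. They lie in an inverted duplication with arms of 19.8 and 19.7 kb (chr13:21792574-21812409 and chr13:21831532-21851277). Of the 36-base words of the left arm, 82.9% recurred at the mirrored place of the right one. Each arm carries an H2B, an H2A and an H4 gene. The left peak was 6496 bp from the TSS of Hist1h2bq, 6764 bp from Hist1h2ao and 8045 bp from Hist1h4m. The right peak was 6499 bp from Hist1h2br, 6735 bp from Hist1h2ap and 8046 bp from Hist1h4n. Neither held the core motif even with 1 mismatch. A read from the identical bases would match both arms, so that over these bases 1 occupied arm and 2 cannot be told apart. The middle of the shared stretch is given once, since both copies read the same, with nothing in capitals because they have no difference to mark.
Both arms, chr13:21803276-21803425 on the plus strand and chr13:21840517-21840666 on the minus strand: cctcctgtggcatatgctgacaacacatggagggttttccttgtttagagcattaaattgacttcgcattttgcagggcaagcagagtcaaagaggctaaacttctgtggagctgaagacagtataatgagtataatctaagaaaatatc

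The remaining repeated peak was the one nearest to any member TSS. It spanned chr13:21753344-21753754, was narrow (411 bp) and weak (fold enrichment 5.87, −log10 p-value 7.26), and covered coding sequence and untranslated bases of Hist1h2ak, whose H2A protein has 130 residues. It ended 73 bp from the TSS of Hist1h2ak, 369 bp from that of the facing H2B gene Hist1h2bn and 2839 bp from that of Hist1h4k. Of its words 46.5% were repeated, and the copy that shared the most words with it, 173 of 376, lay in Hist1h2ae, which had no peak over it. Without the 3 repeated peaks, 17 members in place of 26 had a peak within 10 kb, through 12 distinct peaks, and the median distance was 22097 bp.

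Starting from its left end, the first block opened with a peak at chr13:21714512-21715332 (fold enrichment 10.12), 811 bp from the TSS of the H2B gene Hist1h2bl and downstream of it. It was the nearest peak also for Hist1h2ai, Hist1h3h and Hist1h2bm, at 1090, 2327 and 6712 bp. The next peak, chr13:21733961-21734644 (fold enrichment 7.83, −log10 p-value 5.546), was 420 bp upstream of the H4 gene Hist1h4j and carried the core without a mismatch. The core of the first of these peaks, which has 1 mismatch, and that of the second pointed toward each other across 4 members. Whether they bound a loop was not tested. Farther right, Hist1h1b, the only H1 gene of the block, and the H3 gene Hist1h3i were the members farthest from a peak, at 22267 and 19522 bp. Between Hist1h2br and Hist1h2ah the block has a gap of 198 kb without members, which holds Zfp184, Pom121l2 and Prss16. This gap held 5 peaks, and among them were the strongest of the block, at chr13:21928309-21929095 with a fold enrichment of 17.29 and at chr13:21973917-21974793 with 12.73. They were 94566 and 60775 bp from the nearest member.

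The right end of the first block holds 5 members in 8513 bp, and all 5 had a peak within 10 kb. On their left lay peaks at chr13:22028491-22029178 (fold enrichment 8.81) and chr13:22030300-22030922 (6.85), both in an intron of the noncoding gene Gm11292, and the H2A gene Hist1h2ah was 4646 bp from the second. On their right, the peak at chr13:22043997-22044589 (7.18) was 783 bp from the TSS of the H2B gene Hist1h2bj, and chr13:22050797-22051506 (9.46) followed at 7583 bp. The H2A gene Hist1h2ag was 1053 bp from a peak and the H4 gene Hist1h4i 2635 bp. Just outside the block, Olfr1359 was 16401 bp and Vmn1r188 was 32934 bp from a peak.

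**Figure D3:**
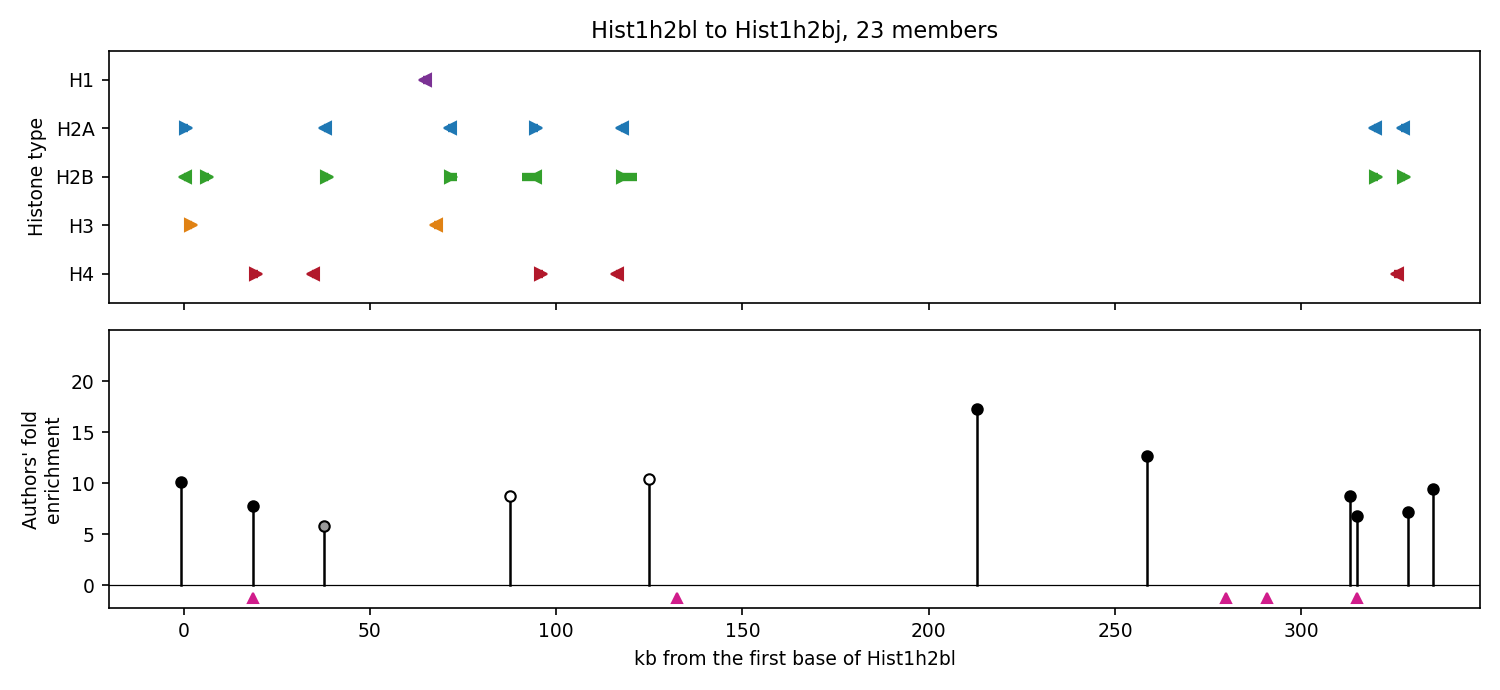
First block of Chromosome 13, with distance from the first base of Hist1h2bl in kb (x axis). Above, members by histone type, with arrowheads at the TSS in the direction of transcription. Below, CTCF peaks by the authors' fold enrichment (y axis), with open circles for the mirrored pair, a gray circle for the peak over Hist1h2ak, and triangles for core motif sites without a mismatch. The tallest peak, at 17.29, stands in the gap without members.

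Several peaks of this region lay beside tRNA genes. The RefSeq annotation has 403 tRNA genes on Chromosomes 1 to 19 and X, and 105 of them are on Chromosome 13, 32 in the first block. Around the 5 blocks, 5 peaks were within 1 kb of a tRNA gene, at 30 to 371 bp, and all 5 lay in the gap of this block or beside its right end. Over the genome 37 peaks (0.195%) were that close to a tRNA gene. The part of the local density of tRNA genes in this was not tested.

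In the second block most members stood far from a peak, and 26 of the 31 had none within 10 kb. The peak to its left, chr13:23524498-23525240 (fold enrichment 12.4, −log10 p-value 21.015), was 5810 bp upstream of the H4 gene Hist1h4h and 8666 bp from the H2A gene Hist1h2af, and had no core even with 1 mismatch. From there 72.6 kb held 14 members, of all 5 types, without another peak. The H3 gene Hist1h3e in this stretch was 35491 bp from a peak. The next peak, chr13:23597860-23598548 (8.48), lay in an intron of the long record of Hist1h2be, 22576 bp from its TSS, and carried the core without a mismatch. A span of 98.6 kb with 5 members followed.

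Next came 3 peaks around the H4 gene Hist1h4c (chr13:23697635-23698454). The strongest, chr13:23697186-23698038 (fold enrichment 12.07, −log10 p-value 24.227), covered the 3′ part of its exon and ended 416 bp from its TSS. It was 1372 bp from the TSS of Hist1h1t, which encodes a testis-specific H1. A weak peak at chr13:23699834-23700310 (4.24, at the 0.195th percentile of all peaks by fold enrichment) was 1380 bp upstream of Hist1h4c, and another at chr13:23700995-23701731 (9.46) was 2541 bp upstream. The peak at chr13:23732264-23732978 (10.24) was 5830 bp upstream of the H1 gene Hist1h1c. From it 59.3 kb with 9 members ran to the peak at chr13:23792321-23793071 (14.68), which carried the core without a mismatch and was 28655 bp from the H1 gene Hist1h1a. The H2B gene Hist1h2ba and the H2A gene Hist1h2aa, known from testis, stood beyond it at 141085 and 141391 bp, the largest distances of all members. They share an interval of 504 kb between neighboring peaks. Beside the block, Btn2a2 was 35641 bp and Scgn 198143 bp from a peak.

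**Figure D4:**
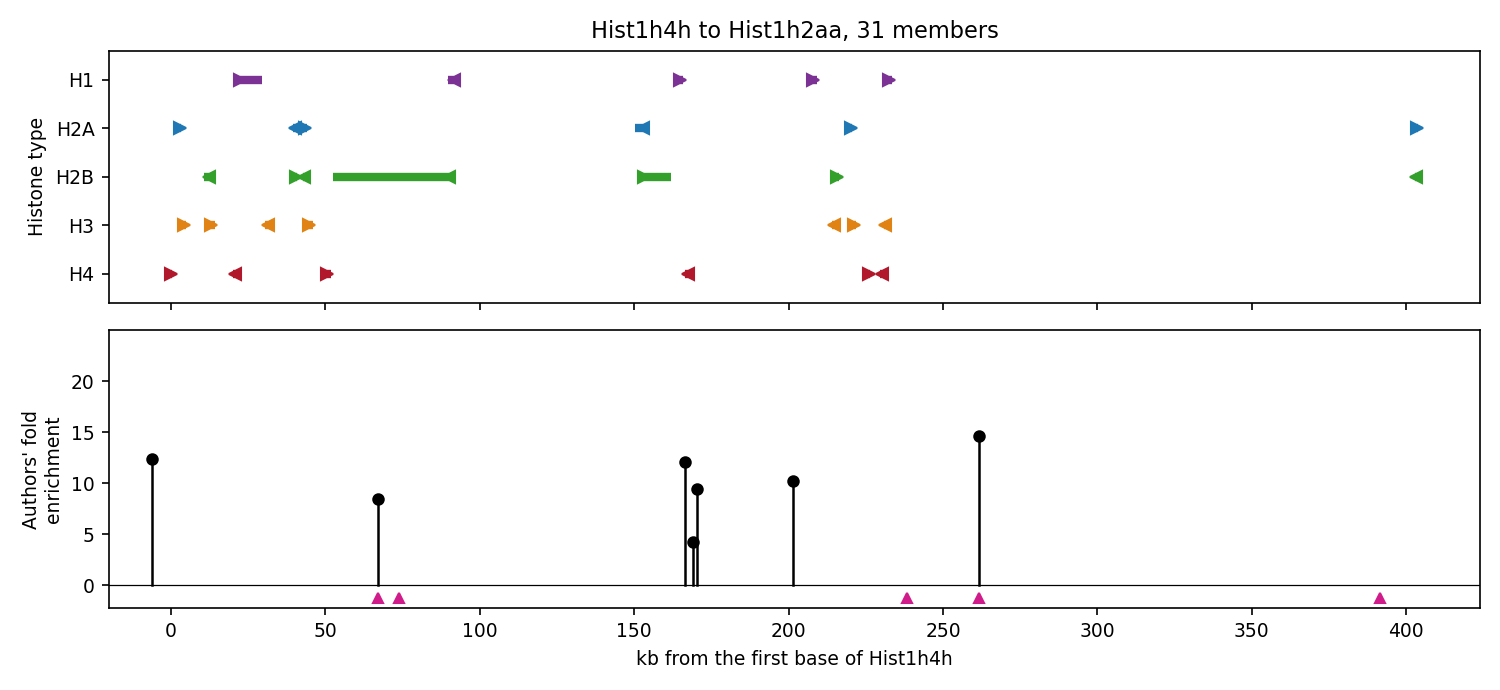
Second block of Chromosome 13, drawn as for the first, with distance from the first base of Hist1h4h in kb along x and fold enrichment along y. Most members stand in stretches without a peak, and 3 peaks gather near Hist1h4c.

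Hist2 members depended on a single peak, to the right of the block at chr3:96277733-96278845 in an exon of the noncoding gene Gm42743. It was 1113 bp wide with a fold enrichment of 11.75, and its −log10 p-value of 30.75 was the highest of the 15. The H2B gene Hist2h2bb was 7981 bp from it, the H3 gene Hist2h3b 9079 bp and the H4 gene Hist2h4 14422 bp. The mirrored genes Hist2h3c1 and Hist2h2aa1 were 31048 and 32236 bp away, and their counterparts Hist2h2aa2 and Hist2h3c2 were 37457 and 38606 bp away. At the left end Hist2h2be, Hist2h2ac and Hist2h2ab were 56614, 56853 and 57868 bp away. Distances thus rose from right to left, and the next peak on the left was 138281 bp from the block, in an interval of 196 kb that held all 10 members. Bola1 on the left was 58024 bp from a peak, and Fcgr1 on the right 5960 bp.

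Core motif sites were nonetheless present at Hist2 promoters. Upstream of the H3 gene Hist2h3c2 a site without a mismatch began 96 bp from the TSS, upstream of Hist2h3c1 81 bp and upstream of Hist2h4 163 bp, and none of the 3 lay in a peak. They are shown with the core in capitals and 19 bases on either side, on the strand of the motif. Like the first 4 sites above, which lie in peaks, they match the core without a mismatch.
Hist2h3c2, chr3:96239204-96239253, plus strand: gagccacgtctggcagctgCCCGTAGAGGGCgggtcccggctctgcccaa
Hist2h3c1, chr3:96246574-96246623, minus strand: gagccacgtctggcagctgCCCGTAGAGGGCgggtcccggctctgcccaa
Hist2h4, chr3:96263455-96263504, minus strand: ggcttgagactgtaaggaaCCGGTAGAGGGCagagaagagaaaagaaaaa
The sites of both H3 genes read the same over all 50 bases, and 86.4% of the words around each of these TSSs were repeated. RefSeq promoters (250 bases before to 50 after the start, GRCm38.p6) were matched to 62 of the 67 members by gene ID, and Hist2h4 was not among them. Of the 62, 2 held the core, against 1.41% of 32619 promoters. Those 2 were Hist2h3c2 and Hist2h3c1, whose sites have the same sequence. A peak overlapped 0 of the 62 windows, against 4.31%.

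Over all 5 blocks, 14 core sites without a mismatch were found, 16.6 per Mb against 8.71 per Mb on Chromosomes 1 to 19 and X. A peak covered 4 of the 14 (28.6%, Clopper-Pearson 95% interval 8.39% to 58.1%, for counting error only), and 30.3% of the 22944 sites over those chromosomes. The interval takes in the share of the genome.

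Hist3h2ba and Hist3h2a lay between peaks at chr11:58927715-58928533 (fold enrichment 13.38) and chr11:58967228-58967917 (8.16). The H2A gene Hist3h2a was 12543 bp and the H2B gene Hist3h2ba 18308 bp from the latter, which is in an intron of Trim17 and an exon of 2310058D17Rik. The record of Trim17 begins at the same base as Hist3h2a. The neighbors Rnf187 and Trim11 were 10383 and 3808 bp from a peak. Hist4h4 was 43222 bp from the peak at chr6:136847637-136848379 (7.5), which carried the core without a mismatch. Next to it, Gucy2c was 38546 bp and H2afj 39393 bp from a peak.

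Members often stood in facing pairs. Within 1 kb of each other, 13 pairs of members stood head to head, 12 of them an H2A with an H2B gene, with a median of 268 bp (176 to 660 bp) between the TSSs. A peak overlapped the bases between in 0 of the 13, where it did in 4.65% of 688 such pairs of neighboring protein-coding genes, a share at which 13 pairs are too few to show a difference. Of the 13 pairs 3 had one within 1 kb of either TSS and 6 within 10 kb. The 688 pairs were not counted at these distances, so no share stands beside these counts. Among the 6, the nearest peaks at 73, 6496 and 6499 bp were the 3 of repeated sequence. Taken by neighboring peaks, the 67 members fell into 13 intervals with a median of 5 members and at most 14. The median gap was 49.1 kb, and over all neighboring peaks it was 43.2 kb. These sets are unlike, because only intervals with a member were taken and a long interval holds a member more easily. The 2 medians therefore do not show wider spacing at the members. With up to 1 mismatch, the best core sites of the flanking peaks pointed toward each other around 2 intervals, away from each other around 2 and the same way around 4, and for 5 at least 1 peak had no site. Both flanking peaks had a site without a mismatch around 2 of the 13. Orientations were not counted over all neighboring peaks, so whether these counts are usual cannot be told.

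A set of 12 histone genes, listed here as replication-independent, had a larger share within 10 kb of a peak than the members. This is a description without a test. Of the 12, 8 (66.7%) had a peak within 10 kb, 3 of these within 1 kb, against the 29.3% and 8.59% of all protein-coding genes. Their median distance was 8239.5 bp. Within 50 kb the shares were alike, with 11 of the 12 and 62 of the 67 members, against 67.7% of all protein-coding genes. A peak over the TSS was found for 0 of the 12, as for the members, where 4.26% of all protein-coding genes had one. At that share 12 genes are too few to show a lack. H2afy2, a macroH2A gene, was 873 bp from a peak with a fold enrichment of 6.85. H2afz, which encodes H2A.Z, was 932 bp from one with 13.7, and the linker histone gene H1fx was 985 bp from one with 5.55. H3f3a and H3f3b, which encode H3.3, were 1819 and 3658 bp from peaks with 12.07 and 12.73. Of 23 genes for histone gene expression and chaperones, counted without a test, 9 (39.1%) had a peak within 10 kb, against 29.3% of all genes. Within 50 kb 21 of the 23 had one. A peak over the TSS was found for 3 of the 23, against 4.26% of all protein-coding genes. These were Lsm11, a subunit of the U7 snRNP that processes histone mRNA, with a fold enrichment of 27.08, Asf1b, an H3-H4 chaperone, with 10.12, and Pou2f1, the octamer-binding factor, with 8.48. Eri1, a nuclease that trims the histone mRNA 3′ end, was 1965 bp from a peak with 5.87, and Chaf1a, the large subunit of the CAF-1 chaperone, was 3209 bp from one with 23.49. The coactivator gene Npat was 57484 bp and Slbp, the stem-loop binding protein gene, 11580 bp from a peak.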

How the data were processed

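Members, lists and comparisons were chosen with earlier results of these data known. The submitters' processing notes name Bowtie 1.0.0, bcl2fastq and mm10. The paper's methods name MACS, state that multiply mapping reads were kept, and leave out ChrM and unplaced sequence. The sources used here do not give the settings. The authors mapped the reads of 1 library, called its peaks and deposited them as 1 list. The authors computed each peak's fold enrichment, a linear ratio over background, before they deposited the list. The authors also gave each peak a −log10 p-value from the peak caller (lowest 5.001) in the deposited list. A q-value (false discovery rate) that the authors' peak caller made before deposit has no stated scale and was used for no result. The deposited list holds no read depth. Distances ran from the 5′ end of a gene record to the nearest peak edge (0 on overlap). The core motif was searched on both strands, and 36-base words were counted over the reference genome. Python 3.11.15, numpy 2.4.6, scipy 1.17.1 and pandas 2.3.3 were used, and the steps were tested on simulated data. Genes named were members with a peak within 1 kb, the nearest member of each distinct peak, block ends, the 2 farthest members per block, all Hist2 to Hist4 members, genes beside the blocks, and up to 5 of each list by distance. Others named were chosen after their values were seen. Alternatives used stricter peaks, other distances, TSSs, flanks and mismatches. Peaks with repeated words were left out after the data were seen.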

Additional observations from a re-analysis of the deposited data

How the results depend on the processing

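No paired analysis was possible because there was 1 CTCF library, and no replicate could be left out. Of 42 alternatives, 20 moved a count by less than 1.5 times or stayed within the interval, and 22 did not. With peaks at or above the median −log10 p-value, members within 10 kb numbered 10, distinct peaks 4, peaks in the blocks 5, core sites in a peak 7.14%, peaks with the core 0, and the median distance was 40054 bp. At or above the median fold enrichment these were 14, 6, 7, 7.14%, 0 and 29408 bp. Both keep fewer peaks by construction. Within 1, 5, 25 and 50 kb, members with a peak numbered 6, 14, 49 and 62, and distinct peaks 5, 8 and 24 within 1, 5 and 50 kb. With 1 mismatch, 10 of the 15 peaks held the core and 7.73% of the 181 sites in the blocks were in a peak, against 4.52% over the genome. Without the 3 repeated peaks, 17 members remained within 10 kb. Transcript starts, midpoints, merged peaks and flanks moved no result by that much. Depth was not in the list, so weak sites may have gone uncalled.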

Other observations

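The promoters of the 62 matched members shared short sequence elements, searched on both strands as exact strings in the RefSeq windows (GRCm38.p6). CCAAT, the box bound by NF-Y, was in 53 of the 62 windows (85.5%), against 37.6% of 32619 promoters. It was in all 6 H1, 18 H2A, 16 H2B and 10 H3 windows, and in 3 of 12 H4 windows. TATAAA was in 35 (56.5%), against 13.7%. The octamer ATTTGCAT was in 7 of 18 H2A and 6 of 16 H2B windows and in 0 of the H1, H3 and H4 windows, against 1.75% of all promoters. Facing H2A and H2B genes share much of a window, so these counts are not independent, and the strings describe the reference and not occupancy in LSK cells.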
